A study of Homo sapiens with 4 samples.

Results

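The 10 genes described here are neural adhesion genes and close relatives, taken by symbol from a table of 35820 genes measured in HCT116, a human colon carcinoma cell line. They are NCAM1, L1CAM, CADM1, CNTN1, CNTNAP2, NRXN3, NLGN1, GPM6A, GPM6B and GPRASP1, and all 10 were found in the table. Knockout (KO) cells, named E2-4 in the design, had TOP3B disrupted by CRISPR cutting at its exon 2 and gave 2 libraries. They were set against wild-type (WT) HCT116 cells, also with 2 libraries, and no treatment is named for either group. TOP3B is a topoisomerase of both RNA and DNA, and the study addresses its role in transcription and in R-loops, structures in which RNA pairs with a DNA strand. There was 1 KO line, so line and genotype cannot be told apart, and no label states that replicate libraries stem from separate cultures. The genes were put together with the KO against WT difference in view, several of them being lower in KO, so their values in that contrast are a description and carry no test.

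Cell adhesion molecules of the nervous system hold axons, dendrites and synapses to their partners. NCAM1, L1CAM, CADM1 and CNTN1 belong to the immunoglobulin superfamily and bind to copies of themselves or to each other's relatives across the gap between cells. NRXN3 on the presynaptic side pairs with NLGN1 on the postsynaptic side, and CNTNAP2, a relative of the neurexins, organises potassium channels along myelinated axons together with a contactin. GPM6A and GPM6B are membrane proteins of the proteolipid family, and GPM6A drives outgrowth of filopodia in neurons. GPRASP1 is a cytoplasmic protein that sorts G protein-coupled receptors to lysosomes and is not itself an adhesion molecule. Some of these genes are also known from epithelium and its tumours, L1CAM at the invasive edge of colon carcinoma and CADM1 as a tumour suppressor.

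The libraries held 10450048 and 16143634 estimated counts in KO and 15141919 and 11750516 in WT. Levels are given as CPM, counts scaled to a common library size with the TMM factor, which was 1.06 and 1.056 in KO and 0.858 and 1.04 in WT. Where 1 library has no count, levels below 0.176 to 0.271 CPM (3 counts, depending on the library) could have been missed through counting error alone. In bulk RNA, fewer cells with a transcript and less of it per cell cannot be told apart. TOP3B itself stood at 43.9 and 54.7 CPM in KO and at 57.1 and 66.5 CPM in WT, so its transcript was still counted in the KO line and its level does not check the genotype. Counts were estimated with Salmon, and genes that every cell uses can be estimated low, such as ACTB with 600 and 1006 counts in KO and 426 and 507 in WT, against 99621 and 145053 in KO and 139006 and 99439 in WT for TUBA1B. A listed 0 is therefore reported as a listed 0 and not as absence of the transcript.

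The label of the set, genes expressed in HCT116, was borne out by the counts of some members, while others were listed at or near 0. GPM6B and CADM1 were listed at 0 in all 4 libraries, as were 46.0% of all genes in the table. NLGN1 had 1 count in KO replicate 1 and 0 in the other libraries, and NRXN3 had 1 and 1 counts in KO and 0 and 4 in WT. These 4 genes did not pass the filter on low counts. The other 6 passed, and of these GPM6A, GPRASP1 and NCAM1 could pass only through their WT libraries. Markers of neurons were sparse, with 7 of the 13 in the table listed at 0 in every library, namely STMN2, DCX, GAP43, ELAVL3, ELAVL4, NEFL and NEFM. Their summed level was 30.7 and 29.8 CPM in KO and 35.1 and 32.1 CPM in WT, most of it from the tubulin gene TUBB3. The glial list had 4 of its 9 markers at 0 (S100B, SOX10, OLIG1 and OLIG2), and its sum of 154 and 143 CPM in KO and 169 and 172 CPM in WT came mainly from MBP, at 145 ± 6.57 CPM in KO and 167 ± 1.5 CPM in WT (SD, n = 2 each). The neuroendocrine list summed to 2.17 and 1.88 CPM in KO and 0.462 and 1.06 CPM in WT, and in it SYP, a synaptic vesicle protein, had 24 and 31 counts in KO and 2 and 11 in WT (log2 fold change 1.91, SE 0.80; edgeR adjusted p = 0.467). The colon epithelial list summed to 1520 and 1450 CPM in KO and 2580 and 2120 CPM in WT, most of it from KRT19. EPCAM, CDH1, KRT8 and KRT18 were detected in every library, whereas CEACAM5 was listed at 0 in all 4. VIL1 had 0 and 0 counts in KO and 0 and 1 in WT, LGALS4 had 0 and 4 in KO and 1 and 3 in WT, and CDX2, an intestinal transcription factor, had 56 and 0 in KO and 46 and 44 in WT. KRT19, a keratin, stood at 1140 ± 86.5 CPM in KO and 1990 ± 353 CPM in WT (SD, n = 2 each). DESeq2 called it lower (adjusted p = 0.0029), edgeR did not (adjusted p = 0.293), and the DESeq2 adjusted p was 0.441 without KO replicate 1, 0.874 without KO replicate 2, 3.86e-06 without WT replicate 1 and 5.37e-17 without WT replicate 2. The edgeR adjusted p was 0.0451 with column totals in place of TMM and 0.00658 without WT replicate 2. The part of these marker levels in the values of the adhesion genes was not tested.

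RefSeq (GRCh38.p14) gave a promoter for 8 of the 10 genes, all but NCAM1 and CADM1. The 250 bases before the start are shown for GPRASP1 and GPM6A, which were listed at 0 in both KO libraries, and for CNTNAP2 and L1CAM, which stayed detected in all 4. Each is written 5′ to 3′ from the most upstream start in the table, with CG dinucleotides in capitals, since these are the bases that DNA methylation can mark.
GPRASP1, chrX:102651233-102651482, plus strand: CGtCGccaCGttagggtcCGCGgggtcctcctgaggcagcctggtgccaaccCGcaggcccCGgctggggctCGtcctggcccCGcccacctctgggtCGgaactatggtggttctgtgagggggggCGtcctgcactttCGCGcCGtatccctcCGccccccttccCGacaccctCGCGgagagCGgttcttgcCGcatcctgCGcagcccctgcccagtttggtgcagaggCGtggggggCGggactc
GPM6A, chr4:176002394-176002643, minus strand: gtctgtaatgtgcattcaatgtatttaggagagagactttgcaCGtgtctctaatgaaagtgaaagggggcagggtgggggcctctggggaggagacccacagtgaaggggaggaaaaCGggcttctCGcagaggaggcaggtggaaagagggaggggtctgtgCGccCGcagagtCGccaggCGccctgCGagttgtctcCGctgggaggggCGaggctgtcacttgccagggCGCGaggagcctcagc
CNTNAP2, chr7:146116551-146116800, plus strand: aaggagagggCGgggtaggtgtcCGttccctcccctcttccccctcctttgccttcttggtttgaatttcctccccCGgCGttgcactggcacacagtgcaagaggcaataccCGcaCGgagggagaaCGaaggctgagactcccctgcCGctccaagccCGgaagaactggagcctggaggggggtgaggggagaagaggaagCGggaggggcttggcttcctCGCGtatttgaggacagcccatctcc
L1CAM, chrX:153876015-153876264, minus strand: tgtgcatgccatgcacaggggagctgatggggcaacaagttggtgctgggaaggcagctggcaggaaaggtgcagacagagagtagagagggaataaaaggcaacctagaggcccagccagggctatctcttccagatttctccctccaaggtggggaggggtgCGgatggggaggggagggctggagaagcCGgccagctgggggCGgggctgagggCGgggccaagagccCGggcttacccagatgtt
The GPRASP1 window held 23 CG dinucleotides, more than 74.2% of the 35116 promoters in the table, whose median was 11. GPM6A and CNTNAP2 each held 12, and L1CAM held 5. Whether these numbers bear on the levels in KO was not tested. GPM6A had further starts, whose windows held 0, 1 and 2, and L1CAM had another, whose window held 8. Which start is used in these cells was not tested. The GC box GGGCGG, the site of SP1-like factors, was searched on both strands and occurs in 42.6% of all promoters. It was found 3 times for GPRASP1, 2 times for L1CAM, 1 time for CNTNAP2 and 0 times for GPM6A. REST, a zinc finger protein, represses neural genes outside the nervous system through a long element with a left arm TTCAGCACC and a right arm GGACAGC. The left arm was in none of these 4 windows and in 0.3% of all promoters, and the right arm was found 1 time, for CNTNAP2, against 4.8% of all promoters. Such matches are letters in a window and no evidence of a site.

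GPM6A and GPRASP1 were detected in WT and listed at 0 in KO. GPM6A (ENSG00000150625.16, chromosome 4) had 0 and 0 counts in KO and 39 and 43 counts in WT, that is 3.01 and 3.52 CPM in WT. The KO value is at least 30.6-fold lower, counted against a floor of 3 counts over both KO libraries. GPRASP1 (ENSG00000198932.12, chromosome X) had 0 and 0 counts in KO and 40 and 50 counts in WT, that is 3.08 and 4.09 CPM in WT, at least 33.6-fold lower in KO. For both genes the groups did not overlap, and the interval of the ratio between the WT libraries included 1: WT replicate 2 over WT replicate 1 was 1.17 for GPM6A (95% exact interval 0.742 to 1.86) and 1.33 for GPRASP1 (0.859 to 2.07). GPRASP1 lies within the annotated span of a longer readthrough transcript that starts in ARMCX5 on the same strand, so reads may be split between them and its estimate is uncertain. Among the measured genes, none found by symbol in the annotation overlapped GPRASP1, and a split of reads was not tested.

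NCAM1 was likewise near 0 in KO, at a lower WT level. This gene (ENSG00000149294.16, chromosome 11), whose protein carries polysialic acid in developing brain, had 1 and 0 counts in KO and 18 and 22 counts in WT. That is 0.0904 and 0 CPM in KO, against 1.39 and 1.80 CPM in WT, and the groups did not overlap. The ratio of KO to WT was 0.0224, with a 95% exact interval of 0.000554 to 0.132 from the summed counts. The fitted log2 fold change was -5.12 (SE 0.98). It ran from -7.49 without KO replicate 1 to -3.99 without KO replicate 2, because the single KO count lies in KO replicate 1.

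**Figure D1:**
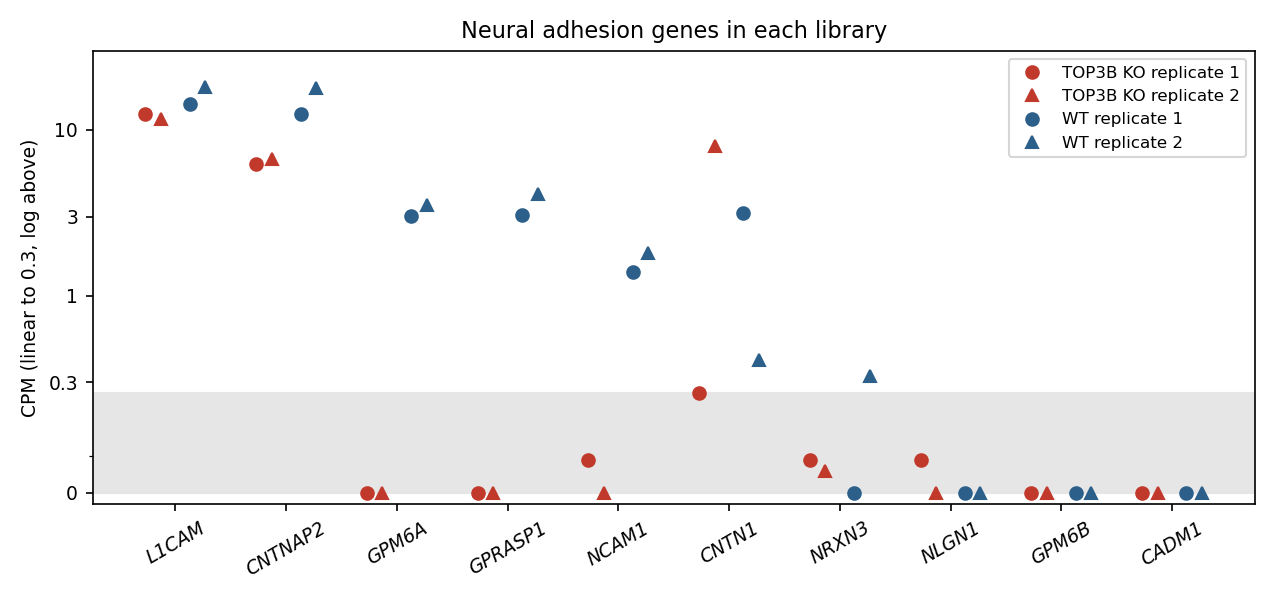
Level of each of the 10 genes in each library, in CPM on an axis that is linear up to 0.3 and logarithmic above; red is TOP3B KO, blue is WT, and the grey band is the highest level that a count of 0 allows in a single library (0.271 CPM). GPM6A, GPRASP1 and NCAM1 have both KO libraries in the band and both WT libraries above 1 CPM, L1CAM and CNTNAP2 are detected everywhere, and CNTN1 is spread within both groups.

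CNTNAP2 and L1CAM were detected in every library and were lower in KO by smaller amounts. CNTNAP2 (ENSG00000174469.21, chromosome 7) had 69 and 114 counts in KO and 162 and 217 counts in WT. In CPM this was 6.23 and 6.69 in KO, against 12.5 and 17.8 in WT, with both KO libraries below both WT libraries. The log2 fold change was -1.22 (SE 0.27), and the means were 6.46 ± 0.324 CPM in KO and 15.1 ± 3.74 CPM in WT (SD, n = 2 each). The spread lay in WT, where replicate 2 stood 1.42 times above replicate 1 (95% exact interval 1.16 to 1.76), while the KO libraries differed by 1.07 times (0.789 to 1.47). L1CAM (ENSG00000198910.13, chromosome X), which guides axons and is also found in carcinoma cells, had 137 and 200 counts in KO and 185 and 222 counts in WT. Its levels were 12.4 and 11.7 CPM in KO and 14.3 and 18.2 CPM in WT, with a log2 fold change of -0.43 (SE 0.22). In the deposited RPKM, which have no TMM scaling, the groups overlapped for L1CAM, with 1.65 and 1.56 in KO and 1.54 and 2.39 in WT. With column totals in place of TMM its log2 fold change was -0.29, and without WT replicate 2 it was -0.23.

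CNTN1 differed more within the groups than between them. This contactin (ENSG00000018236.14, chromosome 12), a lipid-anchored immunoglobulin protein of axons, had 3 and 137 counts in KO and 41 and 5 counts in WT. In CPM the values were 0.271 and 8.04 in KO and 3.16 and 0.409 in WT, so each group held 1 high and 1 low library and the groups overlapped. KO replicate 2 stood 29.7 times above KO replicate 1 (95% exact interval 9.94 to 146), and WT replicate 1 stood 7.72 times above WT replicate 2 (3.05 to 25). Both gaps are wider than counting error alone gives. The log2 fold change of 1.24 (SE 1.49) is smaller than its error, and it was -2.68 without KO replicate 2 and 3.34 without WT replicate 1.

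Read together, 5 of the 6 genes that passed the filter had a log2 fold change below 0, where 51.5% of all 12269 genes tested did. In CPM the KO libraries of these 5 lay below each WT library, as in 23.5% of all genes tested, and in RPKM this held for 4, all but L1CAM. The edgeR test called 0 of the 6 at an adjusted p under 0.05, and 0.00815% of all genes, which is the single gene NRIP1. At an unadjusted p under 0.05 there were 4 of the 6, and 11.2% of all genes tested. Without WT replicate 2 edgeR called 575 genes, GPM6A and GPRASP1 among them, and without either KO library it called 0. DESeq2 called 2 of the 6, GPM6A and GPRASP1, both lower, and with a library left out these calls held only without WT replicate 2. It called 1.45% of all genes, with 0.946% lower and 0.504% higher in KO. The members were picked on this contrast, so these counts add nothing to it. WT replicate 2 was above WT replicate 1 in 5 of the 6, CNTN1 being the exception.

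**Figure D2:**
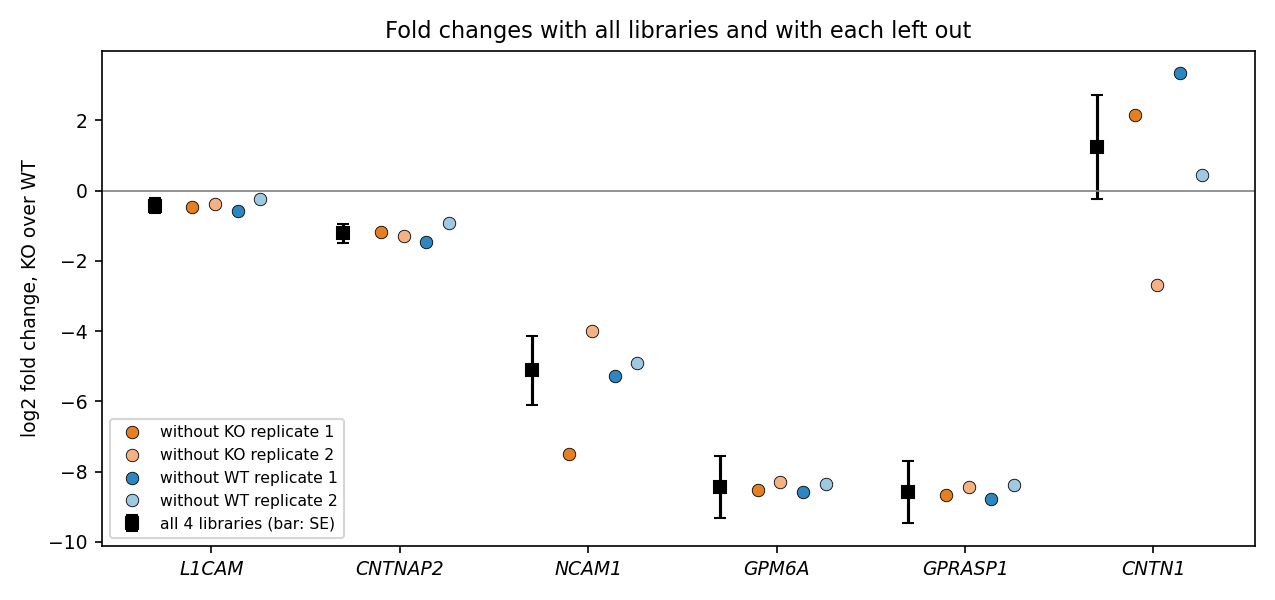
Log2 fold change, KO over WT, of the 6 genes that passed the filter; black squares use all 4 libraries with the SE as bars, and circles leave out 1 library each. The values of L1CAM, CNTNAP2, NCAM1, GPM6A and GPRASP1 lie below 0 with any library left out, while CNTN1 ran from -2.68 to 3.34. Fitted values of GPM6A and GPRASP1 depend on the count added to a KO level of 0 and show a direction rather than a size. The same holds for NCAM1 without KO replicate 1, and with all 4 libraries its value rests on 1 KO count.

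A listing near 0 in both KO libraries was rare among genes readily counted in WT. Of 10803 genes with at least 15 counts in both WT libraries, 21 had at most 1 count in each KO library, a share of 0.194%, and GPM6A, GPRASP1 and NCAM1 were 3 of these 21. The opposite pattern was found in 12 of 10760 genes with at least 15 counts in both KO libraries, a share of 0.112%. Of the neural adhesion genes only CNTNAP2 and L1CAM had that many counts in both KO libraries. The members were gathered with a fall in KO in view, so that none shows the opposite pattern is no result. These limits were set after the counts of the 3 genes were seen, so the shares describe how common the pattern is and no more.

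Levels can be compared between these genes only per length, and the choice of length mattered. The authors' RPKM of NCAM1, GPM6A, CNTN1 and CNTNAP2 imply lengths of 137.33, 198.41, 171.12 and 457.01 kb, which are 10.78, 28.18, 22.84 and 27.42 times the annotated exons. For GPRASP1 and L1CAM the implied lengths of 6.4 and 7.9 kb were 1.01 and 1.09 times the exons. Across 10064 genes with at least 100 counts the median was 3.26 times the exons. In WT, CNTNAP2, which spans 2305 kb, ranked 3 by RPKM and 2 per exon length, and CNTN1 ranked 6 and 5. GPM6A ranked 4 on both, and NCAM1 ranked 5 by RPKM and 6 per exon length.

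By RPKM in WT the order was L1CAM (1.54 and 2.39), GPRASP1 (0.411 and 0.665), CNTNAP2 (0.0234 and 0.0404), GPM6A (0.0130 and 0.0184), NCAM1 (0.00886 and 0.0136) and CNTN1 (0.0156 and 0.00249). The libraries of the first 3 do not overlap with those of the next gene in this order. GPM6A overlapped with NCAM1, and CNTN1 with both, so these 3 are not ordered beyond their spread. NRXN3 followed with 0 and 0.000467 RPKM in WT, and NLGN1 was listed at 0 there. In KO the RPKM order was L1CAM (1.65 and 1.56), then CNTNAP2 (0.0143 and 0.0153) and CNTN1 (0.00152 and 0.0496), which overlap, and every other detected gene had at most 0.000537. Per kilobase of annotated exons, mean levels in WT were 2.23 CPM for L1CAM, 0.907 for CNTNAP2, 0.566 for GPRASP1, 0.464 for GPM6A, 0.238 for CNTN1 and 0.125 for NCAM1. Whether the counts of genes with long introns include intronic reads is not known from the sources used here, and if they do, levels per exon length overstate these genes. On that scale CNTNAP2 moved ahead of GPRASP1, and L1CAM stayed at the top in both groups, with 1.66 CPM per kilobase in KO.

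**Figure D3:**
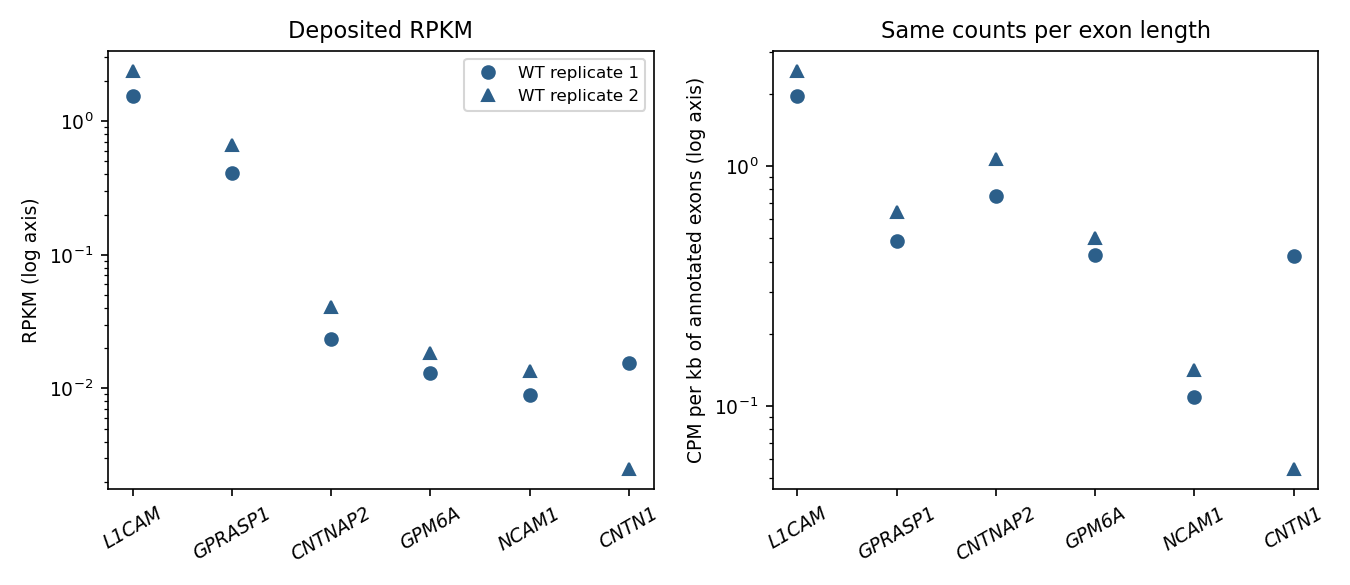
Levels per length of 6 genes in the WT libraries, on logarithmic axes; the left panel shows the deposited RPKM and the right panel CPM per kilobase of annotated exons, with 1 symbol per library. L1CAM is highest on both, and CNTNAP2, at 0.0319 RPKM on average, is below GPRASP1 on the left and above it, at 0.907 CPM per kilobase, on the right.

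Relatives and partners of these genes were followed in 9 lists, and no tested gene of these passed the threshold with all 4 libraries. Of 124 further symbols listed, older names included, 112 were in the table, 24 were at 0 in every library and 66 were tested. Of the 66, 40 had a log2 fold change below 0, where 51.5% of all genes tested did. The median of the 66 was -0.14, against -0.01 over all genes tested. The edgeR test called 0 of the 66 in either direction, where 5 (7.58%) had an unadjusted p under 0.05, against 11.2% of all genes tested. DESeq2 likewise called 0, of 68 genes it tested. Leaving out WT replicate 2 keeps WT replicate 1 alone in its group. The edgeR log2 fold changes were then -0.79 for NECTIN3, -1.05 for the membrane linker RDX and -2.26 for the protease BACE1. RDX stood at 27.1 and 27.4 CPM in KO and 57.1 and 21.8 CPM in WT. BACE1 stood at 2.35 and 2.0 CPM in KO and 10.5 and 1.56 CPM in WT. For both, the omitted library was below both KO libraries, whereas for NECTIN3 it was above them (187 against 161 and 158 CPM).

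Among neurexins and their ligands 6 genes were tested, with a median log2 fold change of 0.21 and 0 calls. CLSTN3, a calsyntenin that binds neurexins, stood at 6.34 ± 1.25 CPM in KO and 11.1 ± 1.15 CPM in WT (log2 fold change -0.81, SE 0.27; edgeR adjusted p = 0.412). NRXN2 had 11 and 16 counts in KO and 5 and 6 in WT (1.12, SE 0.53; edgeR adjusted p = 0.497), and CLSTN1, the most abundant, stood at 290 ± 9.08 CPM in KO and 308 ± 2.76 CPM in WT. NLGN3 and NLGN4X, relatives of NLGN1, were listed at 0 throughout. FLRT3, which binds latrophilins, had 0 and 0 counts in KO and 9 and 11 in WT, at least 7.47-fold lower in KO; it did not pass the filter and is named after its values were seen.

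In the contactin and CNTNAP family 5 genes were tested, with a median of 0.24 and 0 calls. CNTNAP1, the partner of CNTN1 beside the node of Ranvier, had 32 and 23 counts in KO and 12 and 9 in WT (log2 fold change 1.32, SE 0.57; edgeR adjusted p = 0.475). CNTNAP3 stood at 27.8 ± 0.106 CPM in KO and 23.5 ± 0.9 CPM in WT (edgeR adjusted p = 0.560), and PTPRG, a receptor phosphatase that binds contactins, at 53.6 ± 4.03 CPM in KO and 51.3 ± 5.29 CPM in WT. CNTN3, CNTN5, CNTN6, CNTNAP4 and CNTNAP5 were listed at 0.

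Relatives of L1CAM and NCAM1 gave 3 tested genes with a median of -0.50 and 0 calls. NFASC, an L1 family protein, had 8 and 16 counts in KO and 20 and 24 in WT (log2 fold change -1.06, SE 0.47; edgeR adjusted p = 0.484). ANK3, the ankyrin that anchors L1 proteins, stood at 15.1 ± 1.62 CPM in KO and 21.3 ± 2.32 CPM in WT (-0.50, SE 0.19; edgeR adjusted p = 0.451). NCAM2 and the polysialyltransferase ST8SIA4 were listed at 0, and CHL1, NRCAM and ST8SIA2 had at most 1 count in any library.

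In the CADM and nectin families 5 genes were tested, with a median of 0.08 and 0 calls. PVR, a nectin-like receptor, stood at 330 ± 2.70 CPM in KO and 289 ± 21.0 CPM in WT (edgeR adjusted p = 0.555), and NECTIN3 at 160 ± 2.26 CPM in KO and 233 ± 65.0 CPM in WT (log2 fold change -0.55, SE 0.21; edgeR adjusted p = 0.445). CADM2 and CADM3 were listed at 0 beside CADM1, and CADM4 had 8 and 7 counts in KO and 2 and 11 in WT. Of the proteolipid list 3 genes were tested, with a median of -0.13 and 0 calls: MAL2 (-1.45, SE 0.52; edgeR adjusted p = 0.427), PLLP (-0.13) and PLP2 (0.09). The GPRASP and ARMCX family gave 5 tested genes with a median of 0.01 and 0 calls. ARMC10 stood at 114 ± 1.34 CPM in KO and 98.4 ± 3.11 CPM in WT (edgeR adjusted p = 0.517), and ARMCX5 at 18.9 ± 1.39 CPM in KO and 11.9 ± 5.56 CPM in WT (0.67, SE 0.36; edgeR adjusted p = 0.523).

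Cytoplasmic scaffolds that bind the tails of these receptors gave 16 tested genes, with a median of -0.25 and 0 calls. Of the 16, 12 lay below 0, where 51.5% of all genes tested did. The smallest adjusted p of all 66 family genes was that of DLG3, a synaptic scaffold, at 87.6 ± 1.52 CPM in KO and 128 ± 1.07 CPM in WT (log2 fold change -0.55, SE 0.11). Its adjusted p was 0.269 by edgeR and 0.0754 by DESeq2. EPB41L1 stood at 34.9 ± 5.34 CPM in KO and 46.3 ± 4.01 CPM in WT (edgeR adjusted p = 0.475), and EZR, an actin linker, at 2600 ± 161 CPM in KO and 2710 ± 538 CPM in WT. Proteases that shed adhesion molecules gave 9 tested genes with a median of -0.14 and 0 calls. ADAM10, which cleaves L1CAM and NCAM1, stood at 248 ± 1.33 CPM in KO and 302 ± 40.7 CPM in WT (-0.29, SE 0.14; edgeR adjusted p = 0.497), and BACE1 had 26 and 34 counts in KO and 136 and 19 in WT.

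Repressors of neural genes gave 14 tested genes with a median of -0.18 and 0 calls. REST had 4 and 0 counts in KO and 0 and 2 in WT and could not be tested. PHF21A, a subunit of the LSD1 and CoREST complex, stood at 6.15 ± 2.55 CPM in KO and 13.1 ± 3.48 CPM in WT (log2 fold change -1.10, SE 0.39; edgeR adjusted p = 0.429). EHMT2, a histone H3 methyltransferase, stood at 156 ± 5.09 CPM in KO and 124 ± 14.9 CPM in WT (0.32, SE 0.13; edgeR adjusted p = 0.464), and HDAC2, a histone deacetylase, at 729 ± 39.0 CPM in KO and 706 ± 67.7 CPM in WT.

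**Figure D4:**
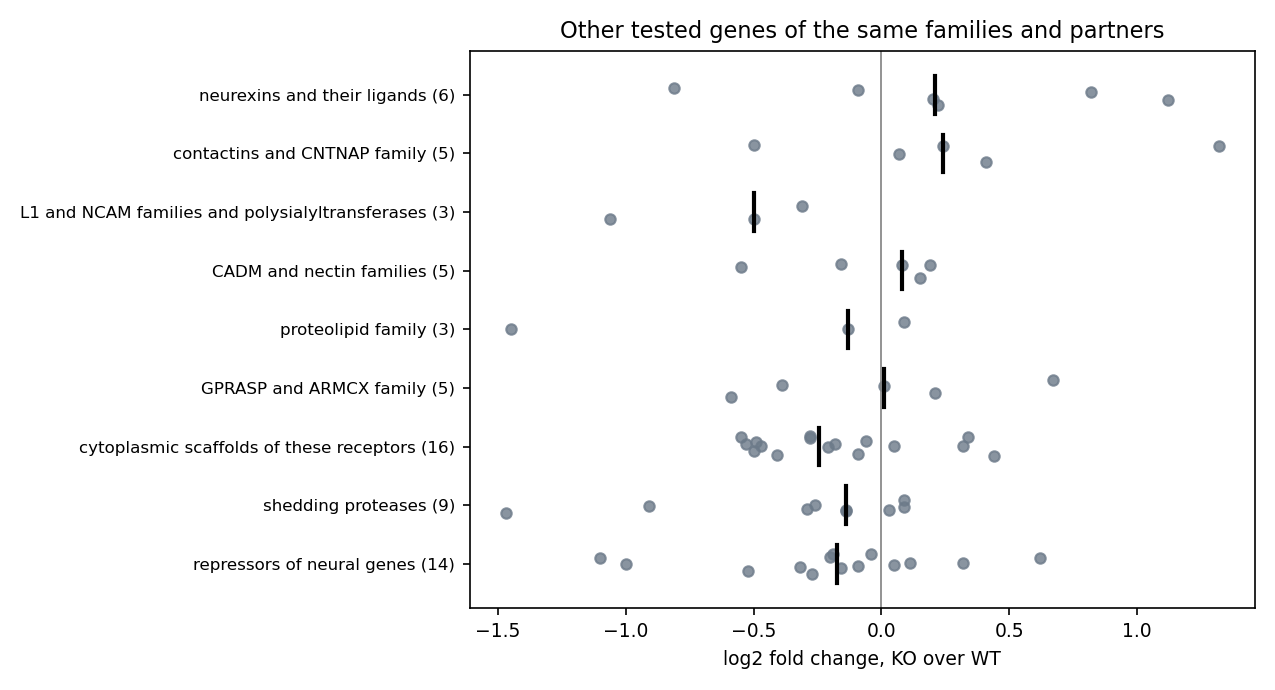
Log2 fold change, KO over WT, of tested genes in 9 lists of relatives and partners of the neural adhesion genes; each dot is 1 gene, the black bar is the list's median, and the number of tested genes stands in brackets. The medians lie between -0.50 and 0.24.

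The nearest tested coding genes along the chromosome were looked up to describe the region around each member. The 3 nearest on each side of each member gave 60 neighbours, with a median log2 fold change of -0.02. They are not always adjacent. HPGD and SPCS3, the closest to GPM6A, had 2 and 3 coding genes between. For GPRASP1, ARMCX5 was adjacent, while TCEAL8 on the other side had 6 between. The coding genes skipped in this way were not tested. The edgeR test called 0 of the 60, of which 6 had an unadjusted p under 0.05 (10%, against 11.2% of all genes tested), and DESeq2 called 0 of the 59 it gave an adjusted p. Around GPM6A the neighbours ran from -1.48 to 0.37; the lowest was AGA, a lysosomal amidase, with 0.723 and 1.23 CPM in KO and 2.54 and 3.03 CPM in WT (edgeR adjusted p = 0.395). Around GPRASP1 they ran from -0.63 to 0.67, the highest being ARMCX5. Around NCAM1 they ran from -0.98 (SE 1.33) for TMPRSS5 to 0.15, with a median of -0.49. Of these, 5 of 6 lay below 0, where 51.5% of all genes tested did. TMPRSS5 had 0.994 and 0.0587 CPM in KO and 0.308 and 1.64 CPM in WT. TTC12, directly beside NCAM1, stood at 8.67 and 10.5 CPM in KO and 13.6 and 11.5 CPM in WT (edgeR adjusted p = 0.561). Neighbours of CNTNAP2 ran from -0.07 to 0.55, the highest being ARHGEF5, and those of CNTN1 from -1.0 for CPNE8 to 0.24.

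Near L1CAM, with 4 coding genes between, lay PLXNB3, a semaphorin receptor of the nervous system. It had 2.44 and 1.70 CPM in KO and 0.693 and 0.573 CPM in WT (log2 fold change 1.69, SE 0.49, edgeR adjusted p = 0.378). BUD13, a splicing factor beside CADM1, had 9 and 14 counts in KO and 0 in WT, at least 6.86-fold higher in KO against a floor of 3 counts over both WT libraries (edgeR adjusted p = 0.274). Elsewhere the widest values were -0.75 (SE 0.4) for TBL1XR1 near NLGN1 and -1.32 (SE 1.37) for STON2 near NRXN3. TBL1XR1 stood at 48.1 and 59.1 CPM in KO and 125 and 55.4 CPM in WT. STON2 stood at 1.63 and 0.705 CPM in KO and 5.55 and 0.164 CPM in WT. Near GPM6B the widest value was -0.19, for RAB9A and MOSPD2. Without WT replicate 2, which leaves WT replicate 1 alone in its group, the edgeR log2 fold change was -0.76 for NAA10, near L1CAM, and -1.21 for TBL1XR1.

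**Figure D5:**
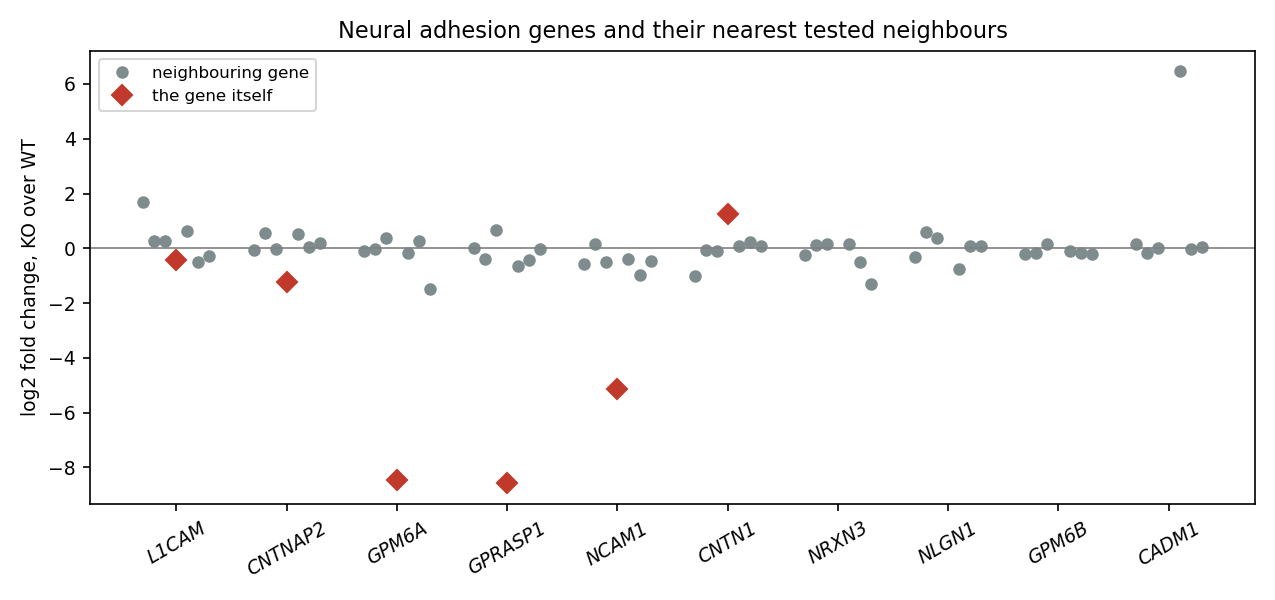
Log2 fold change, KO over WT, of each tested neural adhesion gene (red diamonds) and of the 3 nearest tested coding genes on each side (grey dots, in chromosome order, not to distance). The fitted values of GPM6A, GPRASP1 and NCAM1 lie below those of all their neighbours. These genes were picked with this contrast in view and their KO counts are at or near 0, so this gap is a description only. BUD13 beside CADM1 stands apart because its WT counts are 0.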

How the data were processed

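Total RNA of 4 HCT116 libraries (2 KO, 2 WT) was freed of ribosomal RNA and sequenced as stranded pairs of 150 bp reads, per the labels' protocols. The authors deposited estimated counts per gene as whole numbers and RPKM for the same libraries; the submitters' processing notes name Salmon 1.10.1 and hg19. Annotation and filters are not given in these sources. From the values, RPKM are counts divided by the column total and a gene length. Depth was 10450048 to 16143634 counts per library.

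Counts were tested for KO against WT with edgeR 4.0.16 (R 4.3.3; TMM, filterByExpr, glmQLFTest on genotype alone), adjusted by Benjamini-Hochberg over 12269 genes at a threshold of 0.05; the SE is the log2 fold change divided by the square root of F. DESeq2 1.42.0 gave an adjusted p for 12899 genes and was the first alternative; others are listed under the dependence on processing. With 2 libraries a group, p-values measure the spread between these libraries, which may be technical. Both tests were checked on simulated data. Ratios of small counts have exact 95% binomial intervals, which, like the floor of 3 counts, cover counting error only.

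The members, lists and rules were chosen with earlier results of these data known. Named are all 10 members; of each list the genes called, or else the 2 of smallest p and the most abundant; and of the neighbours the widest for each member. Other genes are named after their values were seen. Identifiers, order and lengths come from GENCODE 29 (GRCh38), whose build differs from the authors', and promoters from RefSeq.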

Additional observations from a re-analysis of the deposited data

How the results depend on the processing

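Over all genes edgeR called 1 gene, and also 1 with RLE size factors. It called 42 with column totals, 34 with no filter on low counts and 0 to 575 with a library left out, the 575 coming without WT replicate 2. DESeq2 called 187, and, in an alternative chosen after seeing the data, 75 and 72 without KO replicate 1 and 2 and 85 and 721 without WT replicate 1 and 2. The cause was not tested. Of the tested neural adhesion genes 4 to 6 lay below 0 under every alternative run. GPM6A and GPRASP1 passed the threshold by DESeq2, and by edgeR with column totals, with no filter and without WT replicate 2. Without KO replicate 2 the log2 fold change of CNTN1 turned to -2.68 by edgeR and -2.71 by DESeq2; the edgeR range was -2.68 to 3.34. Family genes called were 0 to 3 with a library left out by edgeR and 0 to 2 by DESeq2; neighbours called were 0 to 2 by both, the DESeq2 values including 1, ECT2, without WT replicate 1. In the edgeR fit without WT replicate 2, neither family genes nor neighbours were called at a higher rate than all genes tested. That fit leaves WT replicate 1 alone in its group, so its calls single out neither set. Of 8 detected members 4 kept their place in WT when exon lengths replaced the lengths behind RPKM. The labels' replicate numbers mark no stated pairing, and same-numbered libraries had deviations with a correlation of 0.058 across genes; the replicate block called 1 gene, 0 family genes and 0 neighbours. Depth limits the genes under about 15 counts, and 1 read shifts a ratio most where a count is near 0.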

Other observations

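The other 18 genes with at least 15 counts in both WT libraries and at most 1 in each KO library included the 5 below, which were chosen after their values were seen. KIF5A, a kinesin of axons, had 0 and 0 counts in KO and 37 and 48 in WT. SYNM, an intermediate filament protein, had 0 and 0 counts in KO and 39 and 49 in WT. LPAR5, a receptor for lysophosphatidic acid, had 0 and 0 counts in KO and 40 and 38 in WT. KCNAB1, a subunit of potassium channels, had 0 and 0 counts in KO and 32 and 17 in WT. PTGFRN, an immunoglobulin superfamily membrane protein, had 0 and 0 counts in KO and 46 and 25 in WT. In the other direction, DDR2, a collagen receptor, had 60 and 38 counts in KO and 0 in both WT libraries.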
